A study of Mus musculus with 8 samples.

Results

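The cells described here were barcodes with few UMIs (unique molecular identifiers, each a counted RNA molecule) of which an unusually large part came from Malat1. They were found among brain cells of mice that had been sorted by CD11b, an integrin chain carried by myeloid cells such as microglia. A cell was kept as passing when it had at least 500 genes and at most 10% of its UMIs from mitochondrial genes. Of 28700 passing cells, 1795 held fewer than 2000 gene UMIs, and 678 of these had Malat1 at 5% or more of their gene UMIs. These 678 cells are called Malat1-rich here, and they were chosen by their own depth, gene number, mitochondrial share and Malat1 share. They were compared within each library with 712 Malat1-low cells, which also had fewer than 2000 UMIs but Malat1 under 2%, and with 21732 deep cells of 4000 or more UMIs.

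The animals were female and carried GFP-M, a transgene, together with Cx3cr1-CreERT2fl/fl and Rosa26-tdTomatotg/tg, so that the fractalkine receptor gene, active in microglia and related macrophages, drives an inducible Cre. Treated mice took BLZ-945, which blocks the receptor for CSF1, a survival signal of microglia, at 200 mg/kg each day in peanut butter for 14 or 21 days and then went 7 days without it, and control mice took peanut butter alone. Each of the 4 mRNA libraries mixed 4 animals, a control and a repopulated mouse at 3 months and at 12 months of age, marked with hashtag antibodies. The sources used here do not tie a hashtag to a condition, so neither treatment nor age was compared. Per the labels' protocol the brains stood in sucrose and were frozen before they were dissociated. Nothing states how the 4 libraries relate to separate days or cohorts, and the p-values measure only the spread between these libraries.

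Malat1 is a long noncoding RNA that stays in the nucleus, where it gathers in the speckles that store splicing factors. Messenger RNAs of ribosomal proteins, metabolic enzymes and the cytoskeleton are short, spliced quickly and held mostly in the cytoplasm, while unspliced or slowly exported transcripts of long genes are found largely in the nucleus. Whether these barcodes were nuclei, cells that had lost cytoplasm or cells of another kind was not tested.

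The oligo(dT) primer used for this kind of library binds stretches of A, and 2 nuclear long noncoding RNAs on which the results turn carry such stretches inside their own sequence. Malat1 (ENSMUSG00000092341) is annotated as a lincRNA on chromosome 19, from 5795690 to 5802672 on the minus strand of GRCm38. Its end is made by RNase P, which cuts off a small tRNA-like RNA just after a genome-encoded A-rich stretch, so the mature RNA has no ordinary poly(A) tail. The longest A run of its 6983-base transcript lies in exon 1 of 1, 298 bases before the annotated 3′ end, at chr19:5795948-5796039 with 40 bases to each side. Xist (ENSMUSG00000086503), the RNA that coats and silences an X chromosome in female cells, lies on the minus strand of chromosome X from 103460366 to 103483254. The longest of its 3 runs of 10 or more A lies in exon 1 of 7, at chrX:103482643-103482739 with the same flanks. The sequences are from GENCODE M21, written 5′ to 3′, with the A run in capitals, and whether either run primed any of the counted molecules was not tested.
Malat1: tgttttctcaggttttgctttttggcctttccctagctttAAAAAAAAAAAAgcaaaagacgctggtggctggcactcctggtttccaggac
Xist: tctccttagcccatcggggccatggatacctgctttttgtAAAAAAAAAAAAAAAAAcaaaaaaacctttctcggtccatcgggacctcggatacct

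The 4 libraries held between 19440846 and 114306090 gene UMIs in 2970 to 10717 barcodes, and the median passing cell had 5211 to 9733 UMIs. Libraries 1 and 2 shared 459 barcodes, where other pairs of libraries shared 8 to 24. Those 459 barcodes had a median of 680 UMIs in library 1 and 37537 in library 2, and across them the UMI totals of both libraries rose together (Spearman 0.816, a description over barcodes of 2 libraries). Of the 188 Malat1-low cells of library 1, 145 shared a barcode with a deep cell of library 2. No Malat1-rich cell was in that overlap, and 4 Malat1-rich cells of library 4 shared a barcode with another library. Results against Malat1-low cells are therefore given with all barcodes and, where stated, without barcodes found in more than 1 library, which left 43, 265, 196 and 59 Malat1-low cells.

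Malat1-rich cells were a small part of every library. They numbered 64, 133, 289 and 192 in libraries 1 to 4, which was 2.46%, 1.5%, 2.98% and 2.54% of passing cells (mean 2.37% ± 0.622, SD, n = 4). The exact binomial 95% intervals were 1.90 to 3.13%, 1.26 to 1.78%, 2.65 to 3.34% and 2.20 to 2.92%, and they cover counting error only. Among cells under 2000 UMIs their share was 23.0% and 22.5% in libraries 1 and 2 but 47.9% and 59.6% in libraries 3 and 4. In library 1 these cells included the 145 Malat1-low cells whose barcodes were shared with deep cells of library 2. No Malat1-rich cell of library 1 was shared, so these barcodes lowered its share. The median depth of Malat1-rich cells was 1173, 1246, 975 and 1075.5 UMIs, and their median Malat1 share was 8.40%, 8.16%, 8.65% and 9.14%, with a highest cell of 24.9%. Malat1 made 9.54%, 8.87%, 8.92% and 9.51% of their summed UMIs, against 0.607%, 0.939%, 0.420% and 0.503% in Malat1-low cells and 1.88%, 1.13%, 1.01% and 1.47% in deep cells. These values follow from the choice of the cells and were not tested.

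The cut at 5% ran through a continuous range. Just inside it, 89 low-depth cells had Malat1 between 5 and 6%, and just outside, 123 had it between 4 and 5%. At the depth limit, 6, 23, 8 and 9 Malat1-rich cells of libraries 1 to 4 had at least 1800 UMIs, while 5, 31, 11 and 17 cells as rich in Malat1 had 2000 or more but fewer than 2200. A further 127 cells met every condition but had more than 10% mitochondrial UMIs, of which none were in library 1 and 37, 70 and 20 were in libraries 2 to 4. Cells with Malat1 at 5% or more were most frequent at the lowest depths in libraries 2 to 4. From 500 to under 1000 UMIs they were 53.5%, 78.3% and 77.2% of passing cells in those libraries, and at 8000 UMIs or more 0.296%, 0.0235% and 1.01%. In library 1 the share was 19.0% at the lowest depths, 28.3% from 1500 to under 2000 UMIs and 0.878% at 8000 or more. Its cells under 2000 UMIs included the 145 Malat1-low cells whose barcodes were shared with library 2, which lowered its shares at those depths.

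**Figure D1:**
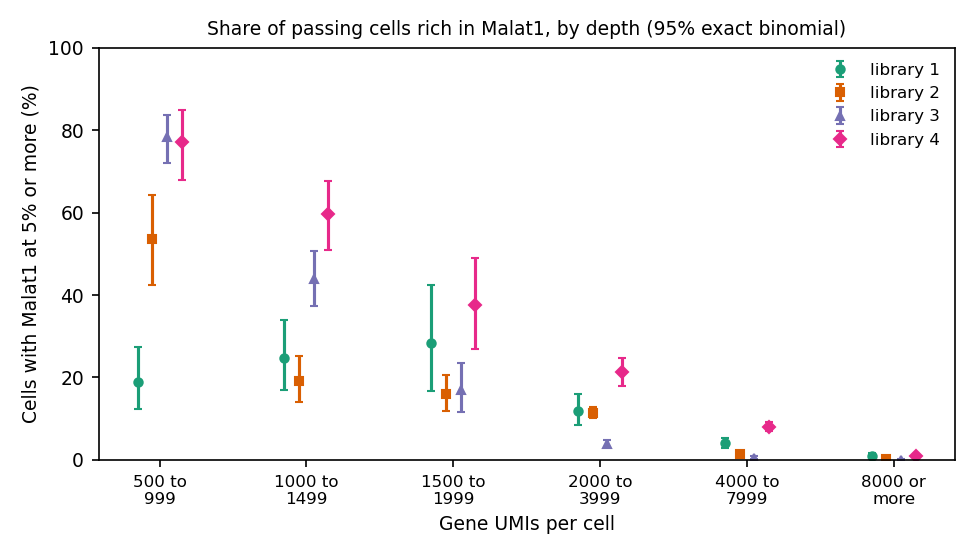
Share of passing cells with Malat1 at 5% or more of their UMIs (vertical axis, percent) by gene UMIs per cell (horizontal axis, 6 ranges), with a point for each library and exact binomial 95% intervals. From 500 to under 1000 UMIs the share was 53.5% to 78.3% in libraries 2 to 4 and 19.0% in library 1, and at 8000 or more it was 1.01% or less in all 4. Library 1 includes the Malat1-low barcodes shared with library 2, which lower its shares under 2000 UMIs.

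Ribosomal protein genes, whose mRNAs feed the cell's most heavily translated class, took a far smaller part of the RNA in Malat1-rich cells. All shares below are of UMIs summed over the cells of a group, without Malat1. The 84 genes made 2.62%, 6.39%, 5.25% and 4.06% of the UMIs of Malat1-rich cells in libraries 1 to 4. In Malat1-low cells they made 18.9%, 13.5%, 21.3% and 19.3%, and in deep cells 16.2%, 20.8%, 20.1% and 20.0%. The highest Malat1-rich value lay below the lowest value of either other group. The mean was 4.58% ± 1.62 (SD, n = 4) against 18.2% ± 3.31 and 19.3% ± 2.08, and without shared barcodes the Malat1-low mean was 17.4% ± 3.63. The exact sign-flip permutation test over 4 libraries gave p = 0.13 for each, two-sided, the smallest it can give, and 0.136 after adjustment over 12 comparisons of shares and hashtag UMIs.

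Long noncoding RNAs other than Malat1 took a larger part. Gm42418, which lies over a copy of ribosomal RNA sequence and often collects reads from it, was set apart. Without it, long noncoding genes made 4.10%, 3.22%, 3.84% and 3.7% of UMIs in Malat1-rich cells. They made 0.995%, 1.41%, 0.988% and 1.16% in Malat1-low cells and 1.30%, 1.11%, 1.03% and 1.04% in deep cells, so the groups did not overlap. The mean share was 3.71% ± 0.367 (SD, n = 4) against 1.14% ± 0.196 and 1.12% ± 0.126, and each exact permutation test again gave p = 0.13. Gm42418 alone made 1.89%, 0.682%, 2.06% and 1.34% in Malat1-rich cells against 0.490%, 0.609%, 1.35% and 0.836% in Malat1-low and 0.451%, 0.217%, 0.341% and 0.160% in deep cells. Without shared barcodes the Malat1-low share of library 1 was 1.36%. Gm42418 was higher than in Malat1-low cells of the same library in 4 of 4, with overlapping groups, and in the edgeR test across all genes Gm42418 did not pass (log2 change 0.29, SE 0.40, adjusted p = 0.538).

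Mitochondrial genes, transcribed inside the organelle, did not fall with the cytoplasmic mRNAs. They made 2.49%, 3.32%, 5.84% and 4.00% of UMIs in Malat1-rich cells, 1.91%, 2.6%, 2.02% and 2.39% in Malat1-low and 0.99%, 2.71%, 3.38% and 2.06% in deep cells. The Malat1-rich share was higher within each of the 4 libraries, by 1.68 ± 1.49 percentage points against Malat1-low and 1.63 ± 0.783 against deep cells (SD of the difference, n = 4), and the groups overlapped across libraries. The exact permutation p was 0.13 for each. The cap on mitochondrial UMIs was part of the choice of cells, and the size of this difference moved with it. Without library 3 the difference to Malat1-low cells was 0.971 points. With a cap of 5% the differences to Malat1-low and deep cells were 0.482 and 0.0856 points, and with a cap of 20% they were 2.24 and 2.76 points.

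**Figure D2:**
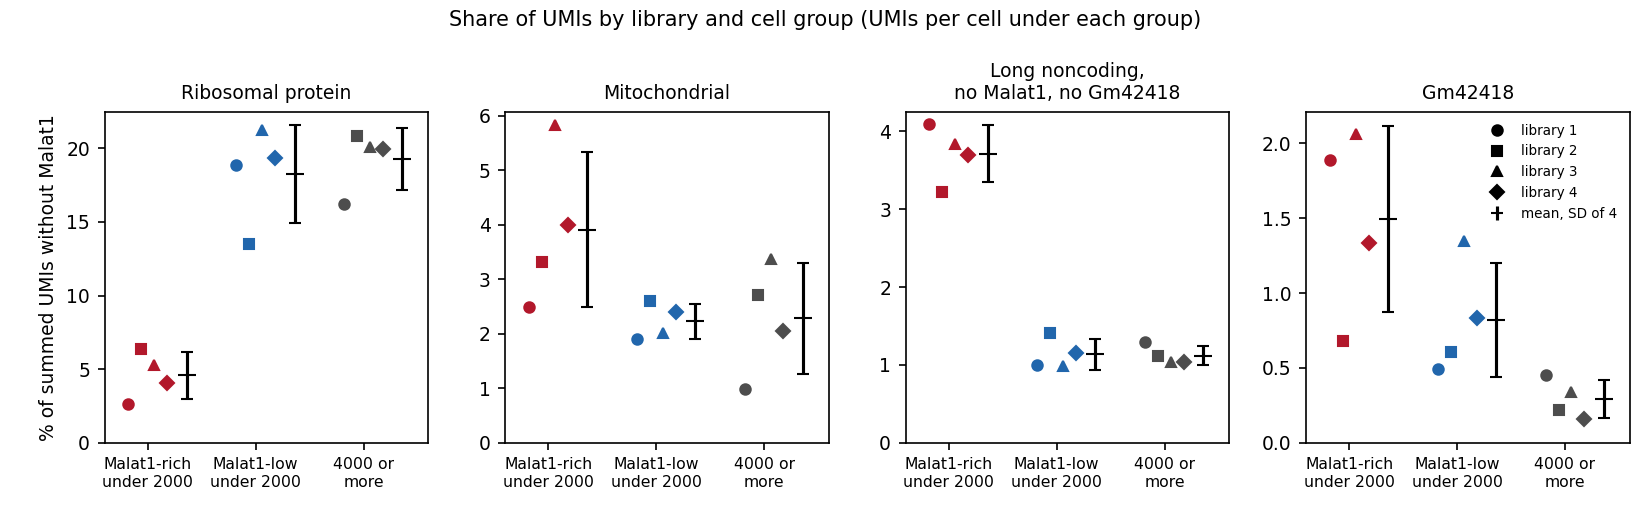
Share of summed UMIs without Malat1 (vertical axes, percent) in Malat1-rich, Malat1-low and deep cells for ribosomal protein, mitochondrial, other long noncoding genes and Gm42418. Each marker is a library and bars are the mean and SD of 4: the ribosomal share was 4.58% in Malat1-rich cells against 18.2% and 19.3%, and the long noncoding share 3.71% against 1.14% and 1.12%.

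Among all low-depth cells the ribosomal share fell step by step with rising Malat1, which describes the cells and was not tested, since Malat1 chose them. In library 3 the ribosomal share was 23.3% where Malat1 was under 1%, 11.9% from 1 to 2%, 11.2% from 2 to 5%, 6.77% from 5 to 8% and 3.97% at 8% or more. In library 4 it went from 20.7% to 2.92% over the same ranges, in library 1 from 19.8% to 2.05% and in library 2 from 15.9% to 4.48%. The mitochondrial share rose at each step in library 3, at 1.83%, 2.91%, 3.62%, 5.6% and 6.04% over the 5 ranges, but not in the other libraries. In library 1 it was 1.75%, 2.51%, 2.19%, 1.8% and 3.15%, in library 2 2.62%, 2.57%, 2.45%, 2.73% and 4.03%, and in library 4 2.13%, 3.45%, 4.49%, 4.42% and 3.75%. The Gm42418 share did not rise at each step in any of the 4 libraries, and in library 1 it was 0.453%, 0.625%, 1.96%, 2.14% and 1.65%. Splicing and speckle genes moved opposite to the ribosomal share, from 3201 CPM (counts scaled to 1000000 UMIs of the group, Malat1 left out) to 21898 in library 3 and from 3953 to 24326 in library 4. The 405 cells with Malat1 between 2 and 5% lay between the neighbouring ranges for the ribosomal share in all 4 libraries, though in library 2 their 10.3% was close to the 10.5% of cells from 1 to 2%.

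**Figure D3:**
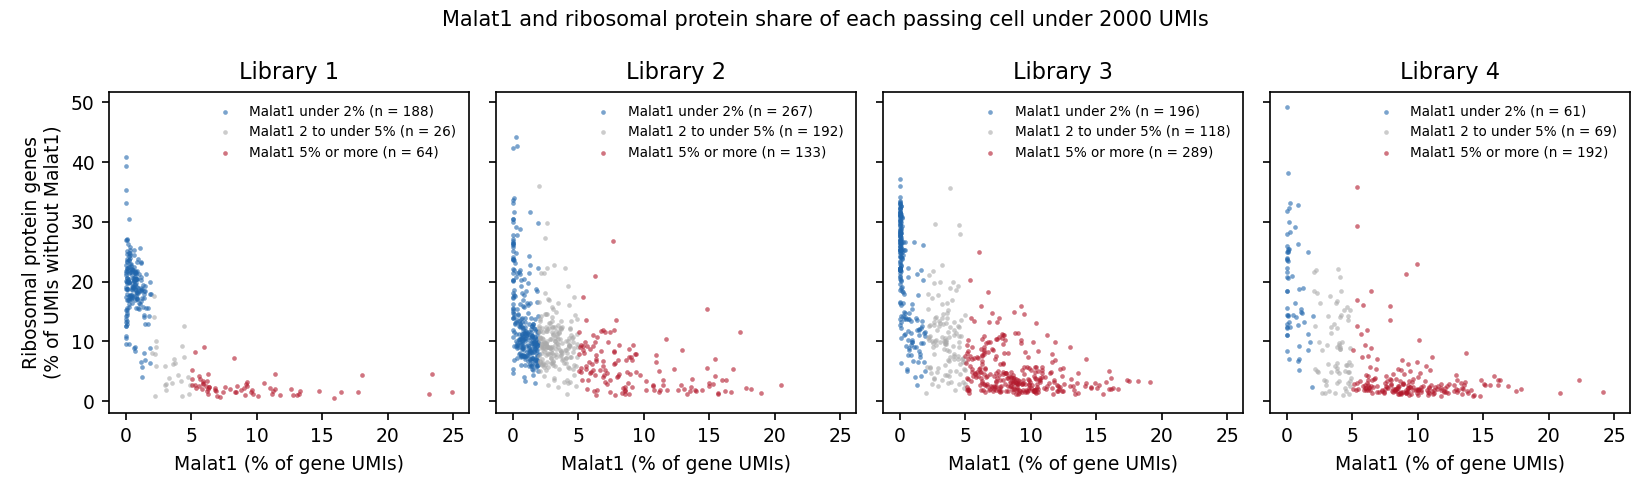
Ribosomal protein share (vertical axis, percent of UMIs without Malat1) against Malat1 share (horizontal axis, percent of gene UMIs) for each passing cell under 2000 UMIs, a panel for each library. Cells with Malat1 at 5% or more (red) lie mostly under the Malat1-low cells (blue), with summed shares of 2.62% to 6.39% against 13.5% to 21.3%, and no gap separates the groups.

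The ribosomal and long noncoding differences, but not the mitochondrial one, had the same direction at higher depth. In the 4 libraries 56, 51, 18 and 219 deep cells also had Malat1 at 5% or more. Their ribosomal share was 7.36%, 8.44%, 8.68% and 8.36%, against 20.4%, 22.2%, 22.0% and 22.9% in deep cells with Malat1 under 2%. Their long noncoding share without Gm42418 was 2.06%, 1.70%, 1.88% and 1.59% against 1.15%, 1.06%, 0.954% and 0.925%. Deep Malat1-rich cells thus lay, in each library, between the low-depth Malat1-rich cells and deep cells with Malat1 under 2% for both measures. Their mitochondrial share was 0.861%, 2.56%, 2.73% and 1.54% against 1.05%, 2.79%, 3.6% and 2.22%, which was lower in 4 of 4 libraries. Markers of other cell types also differed between these deep cells and deep cells with Malat1 under 2%, in both directions. Astrocyte markers summed to 1065, 512, 941 and 1418 CPM against 131, 72.7, 60.1 and 69.8 CPM. Brain macrophage markers summed to 994, 1183, 1680 and 686 CPM against 187, 189, 183 and 211 CPM. Oligodendrocyte markers summed to 135, 7978, 56.0 and 348 CPM against 94.5, 93.6, 72.0 and 71.3 CPM. Neutrophil markers were lower in 4 of 4 libraries, at 0, 7.37, 0 and 0.749 CPM against 32.1, 1487, 643 and 581 CPM, as were monocyte markers (11.2 to 59.0 against 38.4 to 120 CPM) and T or NK cell markers (0 to 18.0 against 8.81 to 94.2 CPM). B cell markers were at 375 against 497 CPM in library 1 and at 284, 314 and 312 against 170, 93.9 and 131 CPM in the others. The part of these markers' cells in the differences at higher depth was not tested.

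The number of different genes at equal depth is given as a description, since the minimum of 500 genes keeps, among shallow cells, those with many genes for their UMIs. Each cell was thinned to 400 UMIs with Malat1 included, at most 500 cells were taken per group, and no cell fell short. Malat1-rich cells then had a median of 332, 326, 323 and 332 genes, Malat1-low cells 297, 299, 274 and 281, and deep cells 303, 294, 292 and 299. The unthinned medians were 725.5, 782, 621 and 688.5 genes in Malat1-rich and 615, 831, 689.5 and 679 in Malat1-low cells, where gene number was part of the choice.

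Gene by gene, UMIs were summed per library and group and tested with edgeR's quasi-likelihood test with Malat1 removed, library as a block and Benjamini-Hochberg adjustment over all genes tested. Cells had been divided by the Malat1 share of the same UMIs, so a gene whose level follows Malat1 from cell to cell had to differ. Against Malat1-low cells 3860 genes were tested, of which 58.6% passed, 28.2% (1089) higher and 30.4% (1172) lower in Malat1-rich cells. Against deep cells 11643 were tested, of which 45.5% passed, 18.9% (2202) higher and 26.6% (3093) lower. The CPM of Malat1-rich cells lay above those of Malat1-low cells without overlap of the 4 libraries for 39.1% of the genes and below for 18.2%, and against deep cells for 27.5% and 12.5%. These directions are relative to the TMM scaling, which centres most genes near no change. With plain library sizes the median of all genes rose by 0.61 and 0.75 on the log2 scale, and the split became 1804 higher and 740 lower against Malat1-low cells (70.9% of calls higher in place of 48.2%) and 4394 higher and 1509 lower against deep cells (74.4% in place of 41.6%). Without mitochondrial and ribosomal protein genes it was 1811 higher and 3479 lower against deep cells, a median shift of −0.16. Without shared barcodes the counts were 969 higher and 986 lower against Malat1-low cells, of which 943 and 969 were also in the counts above. Leaving out library 3 gave 695 and 823 against Malat1-low cells and 1394 and 2337 against deep cells.

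Nuclear long noncoding RNAs rose together. Of 18 listed, 7 passed the expression filter against Malat1-low cells and all 7 were higher, with a median log2 change of 2.39 where the median of all genes tested was 0.09. Of all genes tested there 28.2% were higher. A gene with few UMIs in Malat1-low cells could pass that filter through Malat1-rich cells alone, so the filter favoured this count. Against deep cells 9 of 11 tested were higher and none lower, where 18.9% and 26.6% of all genes tested were, with a median of 1.75 (all genes −0.12). Xist was counted at 7826, 6434, 9967 and 8601 CPM in Malat1-rich cells. It was at 930, 1845, 774 and 1792 CPM in Malat1-low and 1367, 1377, 1375 and 1288 CPM in deep cells, so no library overlapped. The log2 change was 2.16 (SE 0.37, edgeR adjusted p = 5.84e-05) and 1.84 (SE 0.22, adjusted p = 2.55e-16). Neat1, the scaffold of paraspeckles and a neighbour of Malat1 on chromosome 19, stood at 350, 526, 853 and 322 CPM against 129, 94.4, 153 and 48.8 CPM in Malat1-low cells, a log2 change of 1.70 (SE 0.31, edgeR adjusted p = 0.000115). Kcnq1ot1, an imprinted antisense RNA that silences its neighbours, was at 840, 399, 651 and 741 CPM against 53.3 to 81.7 CPM in Malat1-low cells. Dleu2, host of the miR-15a and miR-16-1 hairpins, was at 1554, 1166, 1227 and 1355 CPM against 85.3 to 360 CPM. All of these lay above both other groups in every library. Xist overlaps exons of the antisense gene Tsix and Kcnq1ot1 overlaps an exon of Kcnq1 on the other strand, and the sources used here do not state whether counting used strand.

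Long noncoding RNAs known to work or to be decayed in the cytoplasm did not follow. Of 8 listed, 3 were tested against Malat1-low cells, of which Gas5 alone was lower (log2 change −0.75, edgeR adjusted p = 0.0239) and none higher, with a median of −0.51. Of all genes tested there 30.4% were lower, so this count lay near that share. Without library 1, 3 or 4 Gas5 did not pass. Nor did it with DESeq2 (adjusted p = 0.0546), or in edgeR with a mitochondrial cap of 5% (adjusted p = 0.0561), with no filter on low counts (adjusted p = 0.118) or with both groups at 1000 to under 2000 UMIs (adjusted p = 0.158). Against deep cells 5 of 7 were lower (Gas5, Snhg8, Snhg6, Epb41l4aos and Snhg1), where 26.6% of all genes tested were, with a median of −1.11. With plain library sizes the median was 0.08 and −0.36, no member passed against Malat1-low cells, and 1 was higher and 1 lower against deep cells.

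Many of the genes with the largest rises were noncoding. The largest are the 10 with the greatest log2 change among those called, higher in 4 of 4 libraries and at 100 CPM or more in Malat1-rich cells. Against Malat1-low cells 7 of these 10 do not code for protein: 3222401L13Rik (2.97), Gm4258 (2.95), Mir99ahg (2.77), Gm47664 (2.76), Kcnq1ot1 (2.62), Gm29488 (2.61) and Gm43462 (2.59). Mir99ahg, host of the miR-99a, let-7c and miR-125b-2 hairpins, was at 1036, 653, 979 and 917 CPM in Malat1-rich against 61.0 to 128 CPM in Malat1-low and 90.8 to 147 CPM in deep cells. The other 3 were Nos1ap, an adaptor of neuronal nitric oxide synthase, Sik2, a salt-inducible kinase, and Rictor, a subunit of mTOR complex 2, which was at 322, 266, 274 and 247 CPM against 12.2 to 45.9 CPM. Several of these genes had few UMIs in Malat1-low cells and passed the expression filter through Malat1-rich cells, Nos1ap, Sik2 and Rictor among them, so they had to differ and their fitted values are a description. Against deep cells 5 of the 10 do not code for protein (Gm43221, Gm29488, Gm4258, Mir99ahg and Gm43813), and the coding ones were Zbtb37, Fam13b, Nos1ap, Grk3 and Scai. Over all genes called higher, 4.68% were long noncoding against Malat1-low cells and 12.4% against deep cells, where they were 1.92% and 6.76% of the genes tested. Among genes called lower they were 1.02% and 1.10%.

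Several of these noncoding genes lie inside introns of coding genes on the same strand. Gm29488 lies within Srgap2, Gm47664 within Elmo1, Gm43462 within Man1a2 and Gm43813 within Mlxip, and no exon of theirs overlaps an exon of the host. Gm43221 lies within Fam102b on the opposite strand. Gm29488 was counted at 462, 279, 410 and 660 CPM in Malat1-rich cells, against 32.0 to 68.9 CPM in Malat1-low and 36.4 to 50.5 CPM in deep cells. Gm47664 was at 574, 450, 597 and 715 CPM against 32.0 to 73.1 and 70.0 to 94.9 CPM. Their hosts rose too, Srgap2 by 1.63 (SE 0.32) and Elmo1 by 1.61 (SE 0.31) on the log2 scale against Malat1-low cells, with edgeR adjusted p = 0.000201 and 0.000173. Man1a2 did not pass the test, at 0.41 (SE 0.30, adjusted p = 0.235), while Gm43462 inside it was higher by 2.59. Whether UMIs of these intronic genes came from unspliced RNA of the hosts was not tested.

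**Figure D4:**
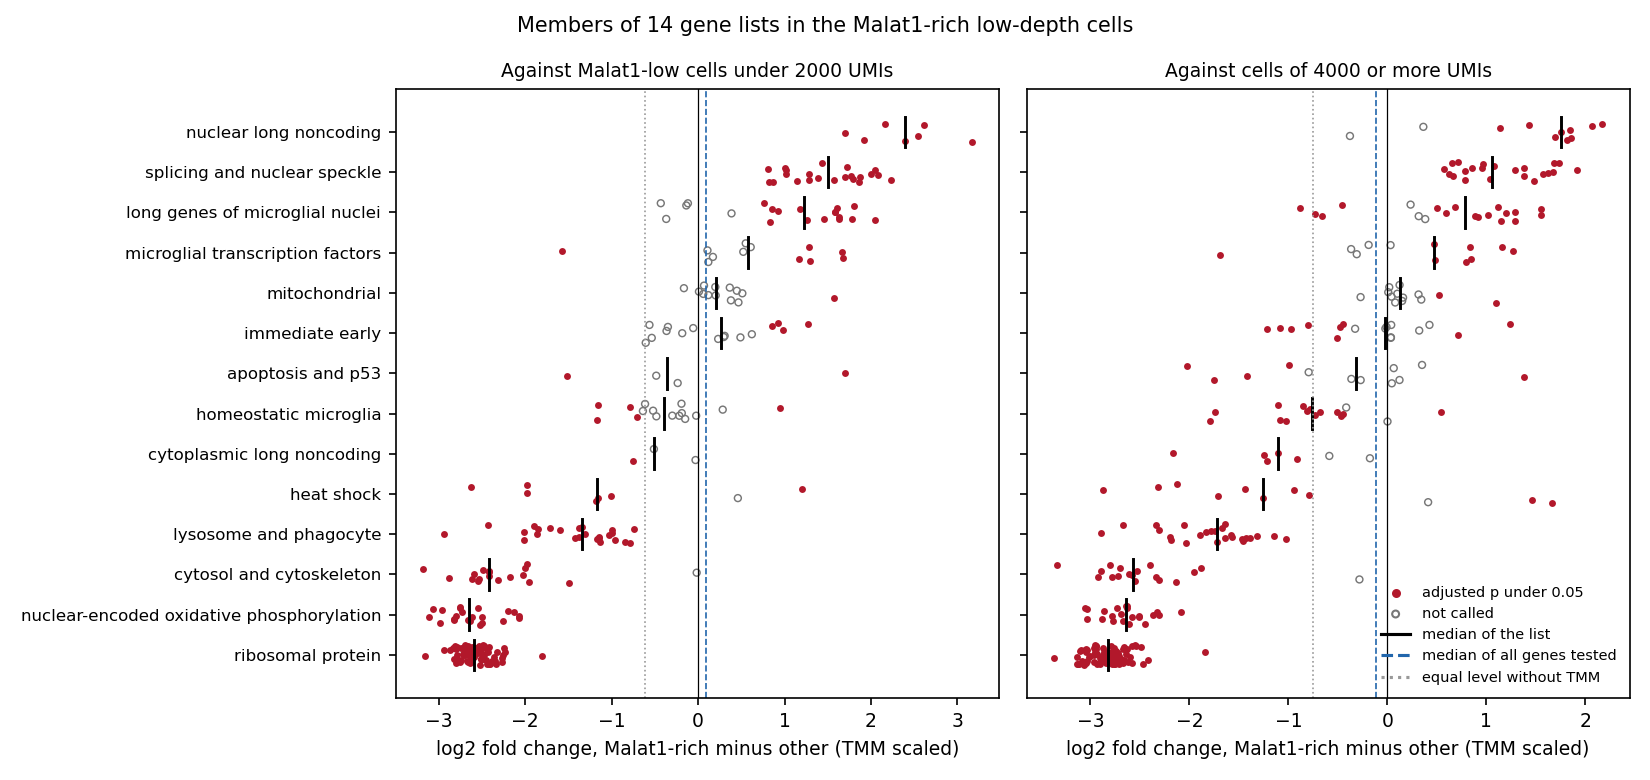
Log2 fold change of each tested member of 14 gene lists (horizontal axis, TMM scaled, Malat1-rich minus the other group), against Malat1-low cells (left) and deep cells (right). Filled points passed the adjusted p of 0.05, bars are list medians, the dashed line is the median of all genes (0.09 and −0.12) and the dotted line is equal level with plain library sizes: nuclear long noncoding and splicing genes lie to the right, ribosomal, oxidative phosphorylation and cytosol genes to the left.

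Splicing and nuclear speckle genes, many of whose proteins share speckles with Malat1, rose throughout. All 22 listed were higher against Malat1-low cells (range 0.80 to 2.23, median 1.5) and all 22 against deep cells (0.57 to 1.91, median 1.06). Their summed level was 21685, 16342, 19613 and 22533 CPM in Malat1-rich cells, 3974 to 6667 CPM in Malat1-low and 4819 to 6537 CPM in deep cells. Son, a core protein of speckles, was at 1848, 1420, 1915 and 2242 CPM against 323 to 592 CPM in Malat1-low cells, a log2 change of 1.43 (SE 0.30, edgeR adjusted p = 0.000489). Srrm2, another scaffold of speckles, changed by 1.29 (SE 0.29, adjusted p = 0.000932). Ddx5, an RNA helicase, was at 1997 CPM or more in all 4 libraries, against 634 to 1233 CPM. Leaving out library 1 or 4 left 18 of the 22 past the threshold against Malat1-low cells, and Ddx5 was not among them (0.86, edgeR adjusted p = 0.05, and 0.95, adjusted p = 0.0801).

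Most of the listed long genes expressed by microglia also rose. Of 20 listed, 15 were higher and none lower against Malat1-low cells, where 28.2% and 30.4% of all genes tested were, with a median of 1.22. Qk, an RNA-binding regulator of splicing, was at 2534, 2047, 2772 and 2882 CPM against 511 to 916 CPM in Malat1-low and 682 to 1091 CPM in deep cells. Arhgap5, a GTPase-activating protein, was at 1806, 1287, 1872 and 2111 CPM against 352 to 807 CPM. Against deep cells 13 were higher and 4 lower, where 18.9% and 26.6% of all genes tested were. The 4 were Lyn (−0.89), a Src-family kinase of myeloid cells, Cyfip1 (−0.73), Rbms1 (−0.66) and Fli1 (−0.45), and with plain library sizes none of them was lower. Fli1 did not pass without library 1, 3 or 4, nor Rbms1 without library 2 or 3.

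Transcription factors of microglia were split under TMM scaling and mostly higher with plain library sizes. Against Malat1-low cells 5 of 12 were higher (Mef2a, Zeb2, Mef2c, Runx1 and Tcf4), 1 was lower and 6 did not pass, with a median of 0.58, and without library 2 the number higher was 8. Against deep cells 7 were higher and 1 lower, with a median of 0.47. Of all genes tested, 28.2% and 18.9% were higher and 30.4% and 26.6% lower against Malat1-low and deep cells. Plain library sizes gave 11 and 10 of 12 higher and 1 lower, with medians of 1.19 and 1.22. With that scaling 1804 of 3860 and 4394 of 11643 genes tested were higher, with medians of 0.70 and 0.63. Their summed level was 12152 to 13287 CPM in Malat1-rich cells, 3484 to 6838 CPM in Malat1-low and 4581 to 6754 CPM in deep cells, without overlap. Mef2a was at 2492, 2098, 2502 and 2917 CPM against 309 to 710 CPM, a log2 change of 1.68 (SE 0.31, edgeR adjusted p = 0.000142). Zeb2, a repressor needed for microglial identity, was at 1778, 1908, 1681 and 1965 CPM against 291 to 567 CPM. The gene that was lower was Spi1, encoding PU.1, the master factor of myeloid cells, at 154, 241, 158 and 151 CPM against 323 to 380 CPM in Malat1-low and 311 to 362 CPM in deep cells. Its log2 change was −1.58 (SE 0.29, edgeR adjusted p = 0.00012) and −1.69 (SE 0.20, adjusted p = 1.36e-15), and the groups did not overlap.

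The length of a gene on the genome went with its direction. Genes higher than in Malat1-low cells had a median span of 61.6 kb (quartiles 30.4 and 110 kb), genes lower 9.51 kb (4.38 and 20.3 kb), and all genes tested 27.0 kb. Against deep cells the medians were 42.2, 12.8 and 22.2 kb. Without ribosomal protein genes the lower genes still had a median of 10.4 and 13.3 kb. Of the genes spanning over 100 kb, 58.3% were higher and 3.69% lower against Malat1-low cells, and of those under 5 kb 4.91% were higher and 68.5% lower. A run of 10 or more A was present in the longest annotated transcript of 36.3% of the genes higher than in Malat1-low cells, 12.9% of those lower and 25.2% of all tested. Those transcripts were also longer, with medians of 5.38, 1.88 and 3.73 kb. Span, transcript length and A runs go together across genes, and their separate parts were not tested.

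**Figure D5:**
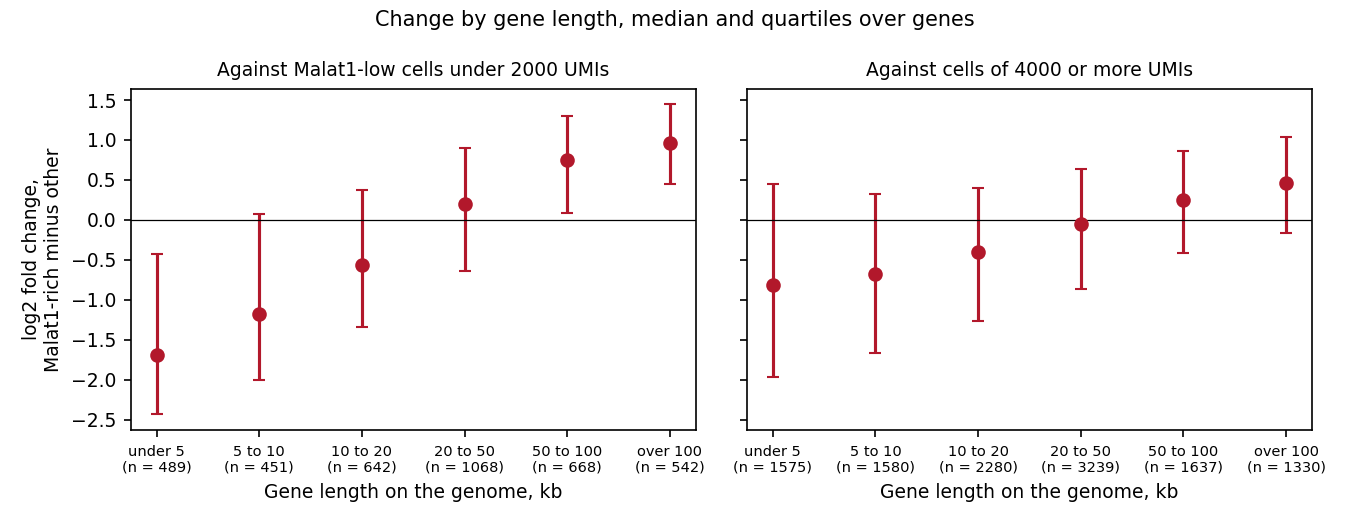
Log2 fold change (vertical axis, Malat1-rich minus the other group) by gene length on the genome (horizontal axis, 6 ranges in kb with the number of genes), against Malat1-low (left) and deep cells (right). Points are medians over genes and bars the quartiles: against Malat1-low cells the median went from −1.69 under 5 kb to 0.96 over 100 kb, and against deep cells from −0.82 to 0.46.

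Ribosomal protein genes fell throughout. Of 84, the 81 tested against Malat1-low cells and the 82 tested against deep cells were lower, with medians of −2.59 and −2.82 on the log2 scale. Rplp0, a protein of the ribosomal stalk, was at 252, 583, 518 and 464 CPM against 2422, 1327, 2387 and 1902 CPM in Malat1-low cells, a log2 change of −2.67 (SE 0.37, edgeR adjusted p = 8.97e-06). Rps27a, a fusion of ubiquitin and a small-subunit protein, was at 392, 1071, 1037 and 645 CPM against 2425 to 4805 CPM. In both, Malat1-rich cells of library 1 were lowest. The fall held with plain library sizes, with medians of −1.97 and −2.07.

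Nuclear-encoded genes of oxidative phosphorylation, which are short and translated in the cytoplasm, fell as far. All 22 were lower in both comparisons, with medians of −2.65 and −2.64. Cox4i1, a subunit of cytochrome c oxidase, was at 112, 260, 284 and 151 CPM against 830 to 1119 CPM in Malat1-low and 761 to 1157 CPM in deep cells. Cox8a, of the same complex, was at 140, 311, 220 and 176 CPM against 659 to 1036 and 603 to 826 CPM. The mitochondrial-encoded subunits of the same complexes behaved otherwise. Of 13, only mt-Nd6 was higher against Malat1-low cells, and mt-Nd6 and mt-Nd2 against deep cells, with list medians of 0.20 and 0.12. mt-Nd6, the lone protein gene on the light strand of mitochondrial DNA, was at 56.0, 82.4, 54.0 and 80.6 CPM against 10.7 to 24.4 CPM in Malat1-low cells, a log2 change of 1.57 (SE 0.45, edgeR adjusted p = 0.00569). It had 4, 13, 15 and 16 UMIs in Malat1-rich cells and passed the expression filter through that group alone, so the filter favoured its call, though it also passed the test with no filter. mt-Co3 was at 4592, 7043, 13026 and 7488 CPM against 3899 to 5194 CPM, and its log2 change of 0.20 (SE 0.35, adjusted p = 0.641) did not pass. Without shared barcodes, without library 3 or with both groups at 1000 to under 2000 UMIs, mt-Nd6 did not reach the expression filter, and none of the 11 genes tested passed against Malat1-low cells. mt-Nd2 did not pass against deep cells without library 1, 3 or 4. With plain library sizes 9 of 13 were higher against Malat1-low and 13 of 13 against deep cells, where 1804 of 3860 and 4394 of 11643 genes tested were. With a mitochondrial cap of 5%, none passed against Malat1-low cells and 7 of 13 were lower against deep cells.

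Genes of the cytosol and cytoskeleton fell with the ribosomal ones. Of 18, 17 were lower and none higher in both comparisons, with medians of −2.42 and −2.57. Tmsb4x, which binds monomeric actin, was at 3878, 8989, 11039 and 4898 CPM against 22155 to 59711 CPM in Malat1-low cells, a log2 change of −2.88 (SE 0.48, edgeR adjusted p = 4.3e-05). Actb was at 2408, 5800, 3556 and 2550 CPM against 7815 to 15411 CPM. Fth1, the ferritin heavy chain, changed by −2.55 (SE 0.39, adjusted p = 2.16e-05) and Eef1a1, a translation elongation factor, by −2.32 (SE 0.38, adjusted p = 3.62e-05). Of these, each Malat1-rich value lay below every Malat1-low value.

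Lysosomal and phagocytic genes, abundant in microglia, fell by less. All 25 were lower in both comparisons, with medians of −1.35 and −1.72. With plain library sizes 14 and 23 of 25 were lower, and leaving out library 3 or 4 left 19 of 25 against Malat1-low cells. Cst3, a cysteine protease inhibitor and among the most abundant microglial mRNAs, was at 16883, 26300, 13937 and 14607 CPM against 30082, 46830, 20934 and 34794 CPM in Malat1-low cells, with overlapping groups and a log2 change of −1.42 (SE 0.41, edgeR adjusted p = 0.00599) that did not pass without library 4 (−1.3, adjusted p = 0.0884). C1qa, a chain of complement C1q, was at 3612, 5781, 2919 and 3069 CPM against 4837 to 8584 CPM in Malat1-low and 6585 to 8460 CPM in deep cells. Apoe, which carries lipids, showed the widest gap, at 1862, 1306, 990 and 831 CPM against 3933, 5327, 4820 and 16617 CPM, and changed by −2.94 (SE 0.46, edgeR adjusted p = 2.57e-05).

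Homeostatic microglial genes overlapped with the other groups in summed CPM, and under TMM scaling most were lower than in deep cells. The summed level of 16 was 23337, 25172, 17007 and 19898 CPM in Malat1-rich cells, 22696, 29887, 14054 and 15983 CPM in Malat1-low and 30222, 20796, 19629 and 21169 CPM in deep cells. Libraries 1 and 2 were highest among the Malat1-rich and Malat1-low cells. Against Malat1-low cells 1 was higher, Cd33, a sialic acid-binding receptor (0.95), and 4 were lower (Sparc −1.17, Olfml3 −1.16, Tmem119 −0.79 and Fcrls −0.71), with a list median of −0.39. Of all genes tested there 28.2% were higher and 30.4% lower, so the list held no larger share of lower genes than that background. Without library 1, 3 or 4 only 2 were lower there, without library 3 or 4 none was higher, and without shared barcodes 1 was higher and 6 lower. With plain library sizes 2 were higher and none lower there, with a median of 0.22. Against deep cells 1 was higher and 13 lower, where 18.9% and 26.6% of all genes tested were, with a median of −0.76, but with plain library sizes 2 were higher and 2 lower with a median of −0.01. P2ry12, the purinergic receptor of ramified microglia, was at 2086, 2415, 1440 and 1612 CPM against 1113, 2542, 963 and 987 CPM in Malat1-low cells, a log2 change of −0.02 (SE 0.31, edgeR adjusted p = 0.954) that was 0.59 with plain library sizes. Cx3cr1, whose locus carries the Cre, was at 1988, 2415, 1983 and 1728 CPM against 1770, 2341, 1385 and 1146 CPM, with a log2 change of −0.22 (SE 0.30, adjusted p = 0.553) that was 0.40 with plain library sizes. Csf1r, the target of BLZ-945, was at 2324, 2466, 1620 and 1945 CPM against 2604, 2917, 1346 and 2133 CPM with a log2 change of −0.61 that did not pass the test (edgeR adjusted p = 0.0911). It passed without library 2 (−0.62, adjusted p = 0.0238), without shared barcodes (−0.7, adjusted p = 0.0363) and under 5 of the other alternatives, while plain library sizes gave 0.0011.

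The markers of the labelled cell type were thus present. The 10 microglial markers summed to 18364 to 30034 CPM in Malat1-rich cells, 22106 to 41102 CPM in Malat1-low and 28816 to 42040 CPM in deep cells, and none of the 10 was at 0. Markers of other cell types summed to less than the microglial ones in each library. None of the 8 neuronal markers had a UMI in any Malat1-rich cell. The 6 neutrophil markers summed to 15.1 to 28.8 CPM with Ngp and Ltf at 0, where Malat1-low cells ranged from 0 to 3587 CPM and deep cells from 38.6 to 1324 CPM. B cell markers summed to 202 to 476 CPM with Cd79a and Ms4a1 at 0, astrocyte markers to 280 to 862 CPM with Gfap at 0, and oligodendrocyte markers to 86.4 to 644 CPM with all 7 detected. Brain macrophage markers summed to 462, 171, 180 and 15.1 CPM, against 360, 304, 771 and 1987 CPM in Malat1-low and 194 to 238 CPM in deep cells. Their part in the falls of Pf4 and Apoe against Malat1-low cells was not tested. In Malat1-rich cells the sums were, for monocyte markers, 0 to 80.6 CPM, for T or NK cell markers 0 to 121 CPM, for endothelial markers 20.2 to 93.6 CPM and for red blood cell markers 0 to 10.8 CPM. Malat1-low cells held 74.6 to 963 CPM of the astrocyte, 76.6 to 120 CPM of the oligodendrocyte, 0 to 610 CPM of the T or NK cell and 19.2 to 362 CPM of the endothelial markers. Deep cells held 98.8 to 198 CPM of the astrocyte and 83.0 to 139 CPM of the oligodendrocyte markers. Astrocyte markers were thus higher in Malat1-rich than in deep cells of each library, and oligodendrocyte markers in libraries 1, 2 and 4 but not 3. The part of such RNA in the results was not tested. When the comparison was kept to cells with at least 3 UMIs of a panel of 6 microglial genes and to barcodes of 1 library, 968 genes were higher and 987 lower against Malat1-low cells.

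Several genes with the lowest fitted changes had few UMIs in Malat1-rich cells and passed the filter through the group where they were high, so they had to differ and the fitted values of this paragraph are a description that depends on the prior count. Against Malat1-low cells the 10 were Ube2c, Ttr (−5.31), Pf4 (−4.88), Lgals1 (−3.96), Anxa5 (−3.76), Stmn1 (−3.68), Txn1 (−3.62), Nme2 (−3.54), S100a4 (−3.48) and Ndufb6 (−3.39). Ube2c, which acts with the anaphase-promoting complex in dividing cells, had no UMI in Malat1-rich cells of libraries 1 to 3 and 5.04 CPM in library 4, against 74.0 to 281 CPM in Malat1-low cells. Ttr, the thyroxine carrier of the choroid plexus, was at 2019, 86.8, 579 and 9582 CPM in Malat1-low cells and at 0 to 212 CPM in Malat1-rich cells. Against deep cells the 10 were S100a8, Igkc, H2-Aa, H2-Eb1, Vim (−4.0), Anxa5 (−3.95), S100a4 (−3.81), Lgals1 (−3.78), H2-Ab1 (−3.71) and Gm10076 (−3.65). S100a8, with 0, 0, 2 and 1 UMIs in Malat1-rich cells, is a neutrophil protein and the H2 genes encode MHC class II chains of antigen-presenting cells. Igkc, an antibody light chain, was at 578 CPM in deep cells of library 1 and 3.65 to 57.7 CPM in those of the other libraries.

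Genes of stress and damage were mixed. Of 17 immediate early genes, which cells switch on within minutes of handling, 16 were tested against Malat1-low cells: Fosb (1.28), Btg2 (0.98), Atf3 (0.93) and Klf6 (0.86) were higher and none was lower, where 28.2% of all genes tested were higher, and leaving out library 3 or library 4 left none past the threshold. Fosb was at 84.0, 88.7, 515 and 121 CPM, with library 3 far above the others. Jun was at 1022, 3106, 3272 and 1612 CPM against 695 to 1455 CPM and did not pass (0.49, SE 0.35, edgeR adjusted p = 0.228). It passed without library 1 (0.91, adjusted p = 0.0406), with plain library sizes (1.1, adjusted p = 0.00437) and with Malat1 under 1% in the comparison cells (0.95, adjusted p = 0.0263). Against deep cells 2 were higher (Egr2 1.24 and Fosb 0.71) and 7 lower, where 18.9% and 26.6% of all genes tested were. Plain library sizes gave 9 higher and none lower in both comparisons, where 1804 of 3860 and 4394 of 11643 genes tested were higher. With DESeq2, 2 were higher and none lower against Malat1-low cells, and none higher and 4 lower against deep cells. Without library 3, Fosb was at −0.14 against deep cells and Egr2 did not pass (0.49, edgeR adjusted p = 0.64).

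Of 11 heat shock genes, 6 of 8 tested were lower against Malat1-low cells and 8 of 11 against deep cells, with medians of −1.17 and −1.25. Of all genes tested in these comparisons, 30.4% and 26.6% were lower. Plain library sizes gave 2 higher and 3 lower against Malat1-low cells, and 3 higher and 5 lower against deep cells. Without library 3 or library 4, 4 were lower against Malat1-low cells. Hsp90ab1, a constitutive chaperone, was at 182, 577, 378 and 413 CPM against 840 to 1213 CPM, a log2 change of −1.97 (SE 0.36, edgeR adjusted p = 0.000111). Hspa8, the constitutive HSP70, was at 84.0, 551, 504 and 343 CPM against 758 to 1268 CPM. Hspa1b, the inducible HSP70, went the other way, at 210, 298, 198 and 307 CPM against 17.8 to 140 CPM, a log2 change of 1.20 (SE 0.33, adjusted p = 0.00385) against Malat1-low and 1.46 (SE 0.18, adjusted p = 1.83e-14) against deep cells. Malat1-rich cells alone carried Hspa1b past the expression filter against Malat1-low cells, so the filter favoured that call. The call of Hspa1b against Malat1-low cells was lost without library 3 (0.86, edgeR adjusted p = 0.0582) and with both groups at 1000 to under 2000 UMIs (0.69, adjusted p = 0.142). Hspb1 was called higher against deep cells (1.66, SE 0.70, adjusted p = 0.0403) on 0, 3, 6 and 0 UMIs in Malat1-rich cells, and with low depth set under 1500 UMIs its change was −0.93. Without library 1, 2 or 3 Hspb1 did not pass either.

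Of 12 genes of apoptosis and p53, 4 were tested against Malat1-low cells. Trp53inp1, a p53-induced gene, was higher (1.70, SE 0.47, edgeR adjusted p = 0.00431) and Bax, which permeabilises mitochondria, lower (−1.52, SE 0.36, adjusted p = 0.00143). These counts, 1 of 4 in each direction, lay near the 28.2% higher and 30.4% lower of all genes tested. Trp53inp1 was at 140 CPM in Malat1-rich cells of library 1 and at 55.4 to 64.8 CPM in those of the other libraries. Malat1-rich cells alone could carry it past the expression filter, so the filter favoured its call against Malat1-low cells. Without shared barcodes only Bax could be tested there, and it stayed lower. Without library 3 Bax did not pass (−0.98, edgeR adjusted p = 0.0551). Against deep cells Trp53inp1 was higher, and Bax, Cdkn1a, Ccng1 and Gadd45b were lower, 1 and 4 of 12 where 18.9% and 26.6% of all genes tested were higher and lower, while plain library sizes gave 4 higher and 2 lower. Gadd45b did not pass with DESeq2 (−0.97, adjusted p = 0.107), without library 3 (−1.14, edgeR adjusted p = 0.0926), without library 4 (−0.72, edgeR adjusted p = 0.24), without the replicate block (−0.90, edgeR adjusted p = 0.107) or under 3 other alternatives. Trp53inp1 did not pass there with Malat1 of at least 8% (0.45, edgeR adjusted p = 0.482). Members of the lists singled out because 5 or fewer passed in a direction were named after their values were seen.

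Hashtag antibodies bind the cell surface, and their UMIs were few on Malat1-rich cells. The median was 278.5, 258, 202 and 111 hashtag UMIs per Malat1-rich cell against 1172, 1027, 1276 and 1453 per deep cell, a mean log2 ratio of −2.61 ± 0.792 (SD, n = 4, exact permutation p = 0.13, lower in 4 of 4). Malat1-low cells had 107, 243, 328 and 395, so Malat1-rich cells were higher in libraries 1 and 2 and lower in libraries 3 and 4 (mean log2 ratio −0.27 ± 1.35, exact permutation p = 0.75). Without shared barcodes the median of Malat1-low cells in library 1 was 716, and the mean log2 ratio −0.95. HTODemux left 35.9%, 46.6%, 77.9% and 84.9% of Malat1-rich cells without a hashtag, against 79.8%, 46.4%, 27.0% and 45.9% of Malat1-low cells and 0.247% to 18.2% of deep cells. It called 0, 4, 7 and 0 of the Malat1-rich cells doublets, 0, 6, 8 and 0 of the Malat1-low cells, and 11.3%, 37.0%, 18.8% and 7.81% of the deep cells. These doublets were kept in all comparisons above. Without them 1078 genes were higher and 1158 lower against Malat1-low cells and 2225 and 3078 against deep cells, and the mean ribosomal difference from deep cells was −14.8 percentage points. Atf3 then did not pass against Malat1-low cells (0.86, edgeR adjusted p = 0.0525), nor P2ry12 (−0.42, adjusted p = 0.0612), Junb (−0.41, adjusted p = 0.0649) and Fli1 (−0.43, adjusted p = 0.0555) against deep cells.

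Within an animal, cells with a hashtag call showed differences of the same direction. Of 14 animals with a usable hashtag, 8 had at least 10 Malat1-rich cells. In all 8 the ribosomal share was lower than in the deep cells of that animal, with medians over animals of 7.08% and 13%, where the means over whole libraries were 4.58% and 19.3%. The deep cells of these 8 animals ranged from 10.2% to 24.3%. In 6 of them, all HTO1 or HTO2, the deep cells were at 10.2% to 14.7%, and the other two, HTO3 of libraries 2 and 4, had 7.92% against 24.3% and 8.06% against 23.7%. The mitochondrial share was higher in 8 of 8 (medians 4.34% and 2.12%), as was the long noncoding share without Gm42418 (3.55% and 1.25%). Malat1-rich cells were 0.0564% to 2.61% of the called cells of an animal. In library 3, 41 of 57 called Malat1-rich cells carried HTO1, 13 HTO2, 1 HTO3 and 2 HTO4, and by the highest raw hashtag count 12.8% of that library's Malat1-rich cells were HTO1 and 68.5% HTO2. With this disagreement, and with no condition tied to a hashtag, no difference between animals was read from the calls.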

How the data were processed

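The authors deposited unnormalised counts of UMIs, a table per library with 32285 genes and 4 hashtags, made with Cell Ranger 4.0.0 per the file headers; the submitters' processing notes name Cell Ranger 3.0.1 and mm10. The annotation release and the use of strand are not given in the sources used here. The 4 hashtag libraries are columns of the same tables. Genes were placed with GENCODE M21 (GRCm38), in which 99.8% of identifiers were found.

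The cell group, the gene lists and the comparisons were chosen with earlier results of these data known. UMIs were summed per library and group without Malat1, and genes were tested with edgeR 4.0.16 (quasi-likelihood, TMM, filterByExpr, library as block, adjusted p under 0.05). The replicate numbers pair the groups because each library holds all groups. On simulated counts, genes changed by 1 on the log2 scale were recovered in 69% against Malat1-low cells (3749 genes) and 63% against deep cells (11454 genes), and by 2 in 99% and 100%. Only 100 genes were changed by each size, evenly in both directions and at higher counts, and 11 and 8 unchanged genes were called. All genes had a single fixed dispersion and libraries differed in size alone. The deposited counts differ in these respects, so the rates are not the power of the tests above. Shares and hashtag UMIs were tested by exact sign-flip permutation. Hashtags were called with HTODemux (Seurat 5.3.0) at quantile 0.99 without hashtags under 1% of a library's hashtag UMIs. The intervals are exact binomial at 95%. CPM values are counts scaled to 1000000 without Malat1.

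The genes named were 23 fixed ones, the 10 largest changes in each direction (called, same direction in 4 of 4 libraries, 100 CPM or more in the higher group), the 2 most abundant members of each list and members called where 5 or fewer passed in a direction, the last 2 chosen after the data were seen. Alternatives were DESeq2 1.42.0, other filters, cuts and scalings, and each library left out. A few genes of the lists are not reported here by name.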

Additional observations from a re-analysis of the deposited data

Results flagged for a closer look

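In Malat1-rich cells, 9 of 125 gene levels tested had 1 library far from the other 3, where chance gives about 1 in 20 (6.25 here). Library 1 stood high for Igkc (70.0 CPM, the others at 0) and Trp53inp1 (140.0 CPM against 55.4 to 64.8). Library 2 stood high for Lyn (628 CPM against 313 to 348), Fli1 (266 CPM against 126 to 146) and Spi1 (241 CPM against 151 to 158), which are all genes of myeloid cells. Library 3 stood high for Fosb (515 CPM against 84.0 to 121) and Stmn1 (64.8 CPM against 14.0 to 20.2), the latter a microtubule regulator. In library 4 Ube2c was at 5.04 CPM with the others at 0, and Gm10076 was low at 5.04 CPM against 25.2 to 28.0.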

How the results depend on the processing

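Log2 changes against Malat1-low cells are marked low and those against deep cells deep. Among genes, 2884 values under an alternative kept direction and call, 142 lost the call, 25 gained it and 59 turned, nearly all of small changes; the cause was not tested. The libraries pair the groups, and without the replicate block 1166 genes were higher and 1226 lower (low) and 2100 and 2817 (deep), with mt-Atp6 at −0.016 (deep). With plain library sizes 1804 genes were higher and 740 lower (low) and 4394 and 1509 (deep). The same scaling turned P2ry12 to 0.59, Cx3cr1 0.40, Csf1r 0.0011, Fos 0.43, Snhg8 0.084, Junb 0.56 and Cdkn1a 0.16 (low), and mt-Co1 to 0.48, P2ry12 0.30, Cx3cr1 0.068, Junb 0.30, Rbms1 0.083, Cyfip1 0.015 and Fli1 0.30 (deep). With both groups at 1000 to under 2000 UMIs 719 genes were higher (low), with P2ry12 at 0.13, Cx3cr1 0.0055 and Junb 0.11. A mitochondrial cap of 5% left 1.63% of passing cells as members and turned mt-Co1 to −0.42, mt-Atp6 −0.34, mt-Co3 −0.22 and P2ry12 0.14 (low), and mt-Atp6 to −0.74, mt-Co3 −0.73, mt-Nd2 −0.23 and Jun −0.16 (deep). A cap of 20% gave P2ry12 0.0090 (low) and mt-Co1 0.10 (deep). Malat1 of at least 8% left 1.39% of cells, with Junb at 0.20 (low) and mt-Atp6 at −0.0092 (deep). Malat1 under 1% in the comparison cells gave P2ry12 0.27, Cx3cr1 0.24 and Junb 0.13 (low). Without shared barcodes Fos was 0.10 and Junb 0.15, and in microglial panel cells without them 0.077 and 0.13 (low); panel cells alone gave P2ry12 0.017. Without mitochondrial and ribosomal protein genes P2ry12 was 0.0038 (low) and Jun −0.11 (deep). Low depth under 1500 UMIs gave Jun −0.079 and Hspb1 −0.93 (deep). DESeq2 gave mt-Co1 −0.0054 (low), 827 genes higher and 1003 lower (low) and 1860 and 2408 (deep). No filter on low counts gave mt-Atp6 −0.14, mt-Co3 −0.11 and Jun −0.15 (deep). With each library left out, genes higher ranged from 695 to 1230 (low) and from 1394 to 2058 (deep), lowest without library 3. The ranges were −0.15 to 0.23 for mt-Co1, −0.071 to 0.25 for mt-Atp6, −0.11 to 0.11 for P2ry12, −0.53 to 0.074 for Fos, −0.15 to 0.21 for Junb and −1.49 to 0.15 for Cdkn1a (low). They were −0.15 to 0.24 for mt-Atp6, −0.23 to 0.27 for Jun, −0.14 to 0.26 for mt-Co3 and −0.14 to 1.11 for Fosb (deep). The log2 ratio of hashtag UMIs to Malat1-low cells ranged from −0.81 to 0.26, highest without library 4. The 678 cells held few UMIs each, so genes of low level could not be tested against Malat1-low cells.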
